A study of Oreochromis niloticus with 21 samples.

Results

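In fish the kidney and the spleen are the main blood organs. The blood-forming tissue of bony fish, which have no marrow, lies mostly in the kidney, between and ahead of the tubules that make urine. The spleen stores and clears red blood cells, filters the blood and holds lymphocytes and macrophages. Genes high in these organs and low elsewhere are therefore of interest as a set shared by kidney and spleen.

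Of 17098 genes measured in the Nile tilapia, Oreochromis niloticus, 4 met the definition of such a set. For each gene a tissue level was taken as log2(mean RPKM over the 3 temperatures + 1). RPKM is a read count divided by gene length and by a constant for each library. This constant was not the number of reads on genes, as recovered from the RPKM values. It was lower in liver at 28 °C (1058180 against 1507951) and higher in kidney at 28 °C (2899480 against 905142). RPKM of different tissues are thus not on a scale of reads on genes. With median-of-ratios scaling the same 4 genes met the definition. The lower level of kidney and spleen had to lie at least 1.5 above the highest of the other 5 tissues, kidney and spleen had to be less than 2 apart, and the mean had to reach 5 RPKM in each. The genes were thus chosen by their levels in all tissues of these same libraries, and differences between tissues are given as a description with no test. Temperature entered the choice only through the mean, and changes with temperature were tested. A mean can pass the floor of 5 RPKM through 1 high library, so these tests are not fully independent of the choice.

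The libraries came from kidney, spleen, brain, gill, heart, liver and muscle of fish aged 6 months, held for 12 h at 10 or 18 °C or kept at 28 °C, with 1 library for each tissue and temperature and 21 in all. The labels do not give strain, sex, number of fish, pooling, whether tissues shared a fish or which part of the kidney was taken. RNA was total RNA of each tissue. Lower abundance in a tissue can come from fewer cells of a type or from less RNA per cell, and these cannot be told apart.

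The genes are named by their Ensembl identifiers, ENSONIG00000020930, ENSONIG00000010870, ENSONIG00000017315 and ENSONIG00000011043. None of the 17098 identifiers matched the RefSeq table used for names, so no role is stated for any of them. For the same reason, markers of red cells, leukocytes, tubule cells or other cell types could not be read in these libraries, and the blood-cell content of the organs was not tested.

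Reads per library were recovered from the RPKM values and ranged from 331738 to 3664592 over all libraries, and from 557584 to 3041530 in the 6 kidney and spleen libraries. Across genes, each of the 21 libraries had its highest Spearman's rho with another library of the same tissue. Kidney and spleen libraries had a rho of 0.571 to 0.641 with each other, and none of the 6 had the other organ as its closest tissue outside its own. That was heart or liver for kidney and heart for spleen. The highest rho of a library within its tissue ranged from 0.723 for liver at 28 °C to 0.930 for brain at 28 and 18 °C. Brain at 10 °C, which had the fewest reads, had 0.751, heart at 18 °C had 0.788, and the muscle libraries had 0.763 to 0.775. One alternative, chosen after the data were seen, left out liver at 28 °C, heart at 18 °C and brain at 10 °C, which these values alone do not single out. Spleen at 28 °C had a rho of 0.865 with spleen at 18 °C and of 0.765 with heart at 18 °C.

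Few genes set kidney and spleen apart from all other tissues together. Of 1951 genes with a mean of 5 RPKM in each organ and levels less than 2 apart, 173 were higher in both organs than in every other tissue, 30 by a margin of 0.5, 8 by a margin of 1 and 4 by a margin of 1.5. The same definition applied to each of the 21 pairs of tissues gave 1 to 135 genes, with a median of 12. Muscle with spleen, at 1 gene, was the only pair with fewer than kidney with spleen.

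Among these 1951 genes, the 4 were separated from the rest by a gap. Their margins were 2.44 for ENSONIG00000017315, 2.33 for ENSONIG00000010870, 2.29 for ENSONIG00000020930 and 1.97 for ENSONIG00000011043, the last 2 being the nearest inside the threshold. The nearest of the 1951 genes outside it were ENSONIG00000016336 and ENSONIG00000005988, with margins of 1.24 and 1.13. A gene left out by the floor of 5 RPKM, with 4.44 in spleen, had a margin of 1.31. ENSONIG00000016336 averaged 7.52 RPKM in kidney and 5.78 in spleen, against 1.87 in heart, its next tissue. ENSONIG00000005988 averaged 18.95 RPKM in kidney and 5.71 in spleen, against 2.06 in liver.

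**Figure D1:**
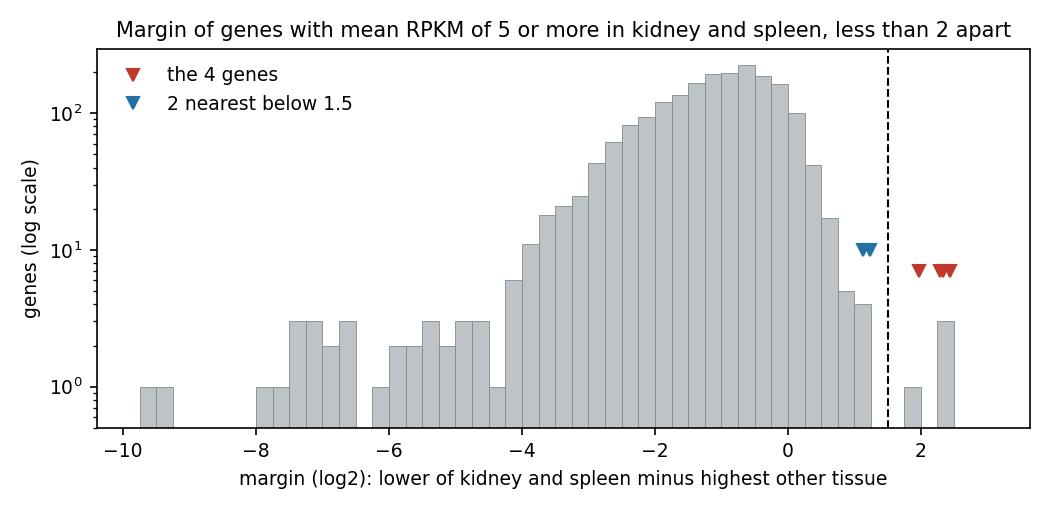
Distribution of the margin (horizontal axis, log2; bins of 0.25) over 1951 genes with a mean of at least 5 RPKM in kidney and in spleen and levels less than 2 apart; the vertical axis counts genes on a log scale. The dashed line marks 1.5; the 4 genes lie at 1.97 to 2.44 and the 2 nearest others at 1.24 and 1.13.

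ENSONIG00000020930 was the most abundant of the set. Its kidney libraries had 177, 111 and 51.7 RPKM at 28, 18 and 10 °C, from 435, 190 and 324 reads. Its spleen libraries had 38.3, 90.9 and 119 RPKM at 28, 18 and 10 °C, from 83, 187 and 356 reads. In the other 15 libraries it had 0.614 to 35.5 RPKM, with a median of 8.05. No library of another tissue reached the lowest of the 6 kidney and spleen values.

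By tissue mean, ENSONIG00000020930 had 113 ± 62.5 RPKM in kidney and 82.7 ± 40.9 in spleen (SD over the 3 temperatures, n = 3, which are not replicates). Brain followed with 16.1 ± 16.9, heart with 14.0 ± 6.82, liver with 12.9 ± 3.85, muscle with 6.07 ± 2.84 and gill with 3.96 ± 4.58. In this order the ranges of neighbours overlapped, except between spleen and brain and between liver and muscle. It ranked 163rd in kidney and 162nd in spleen among all genes by mean RPKM.

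ENSONIG00000010870 was next in abundance. Its kidney libraries had 68.5, 35.1 and 18.4 RPKM at 28, 18 and 10 °C, from 584, 207 and 400 reads. Its spleen libraries had 21.3, 57.9 and 58.7 RPKM, from 160, 413 and 609 reads. Elsewhere it had 0.321 to 19.4 RPKM, with a median of 3.94. One library of another tissue, brain at 10 °C, exceeded the lowest of the 6 values, kidney at 10 °C.

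By tissue mean it was highest in spleen, with 46.0 ± 21.4 RPKM, and then in kidney, with 40.6 ± 25.5 (SD over the 3 temperatures, n = 3). It had 7.28 ± 10.5 in brain, 5.92 ± 3.32 in heart, 4.28 ± 0.896 in gill, 3.29 ± 2.63 in liver and 2.07 ± 1.99 in muscle. The ranges of all neighbours in this order overlapped, kidney and brain included. It ranked 412th in kidney and 272nd in spleen.

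Brain at 10 °C set the margin of both of these genes. ENSONIG00000020930 had 35.5 RPKM there, from 37 reads, against 6.68 and 6.0 at 18 and 28 °C. ENSONIG00000010870 had 19.4 RPKM, from 70 reads, against 1.19 and 1.26. These were 5.60-fold and 15.8-fold the mean of the other brain libraries. Without liver at 28 °C, heart at 18 °C and brain at 10 °C, heart was the next tissue for both genes. The margins were then 2.17 and 2.24, and the same 4 genes met the definition. This also took out the lowest heart library of both genes (6.67 and 2.09 RPKM at 18 °C), which raised their heart means. These margins thus do not give the effect of brain at 10 °C alone.

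ENSONIG00000017315 was less abundant and had few reads outside the 2 organs. Its kidney libraries had 13.3, 11.5 and 6.95 RPKM at 28, 18 and 10 °C, from 30, 18 and 40 reads. Its spleen libraries had 20.6, 5.29 and 3.27 RPKM, from 41, 10 and 9 reads. Of the other 15 libraries 9 had 0 reads, and the highest was liver at 28 °C with 2.42 RPKM, which was 2 reads. No other library reached the lowest kidney or spleen value, but the depth limits this. The upper end of the 95% exact Poisson interval for 0 reads was 0.821 to 5.71 RPKM in these 9 libraries. Spleen at 10 °C had an interval of 1.5 to 6.21 RPKM.

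Tissue means of ENSONIG00000017315 were 10.6 ± 3.26 RPKM in kidney and 9.72 ± 9.48 in spleen (SD over the 3 temperatures, n = 3). They were 0.973 in brain, 0.808 in liver, 0.449 in heart and 0.190 in gill, and it was not detected in muscle. Kidney and spleen overlapped, spleen and brain did not, and the lower tissues overlapped or could not be ordered at this depth.

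ENSONIG00000011043 was the least abundant. Its kidney libraries had 6.71, 4.44 and 10.1 RPKM at 28, 18 and 10 °C, from 48, 22 and 184 reads. Its spleen libraries had 8.26, 5.52 and 4.37 RPKM, from 52, 33 and 38 reads. It had 0 reads in 11 of the other 15 libraries, namely all of brain, liver and muscle and gill at 28 and 18 °C. The upper end of the 95% exact Poisson interval for 0 reads was 0.333 to 1.80 RPKM there. Heart was the only other tissue with reads at every temperature, at 1.11, 0.287 and 1.02 RPKM from 20, 3 and 5 reads.

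Its tissue means were 7.08 ± 2.85 RPKM in kidney, 6.05 ± 2.0 in spleen and 0.805 ± 0.451 in heart (SD over the 3 temperatures, n = 3). Kidney and spleen overlapped, and both lay clear of heart, with 4.37 RPKM as their lowest value and 1.11 as the highest in heart. Gill had reads only at 10 °C, 2 of them.

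**Figure D2:**
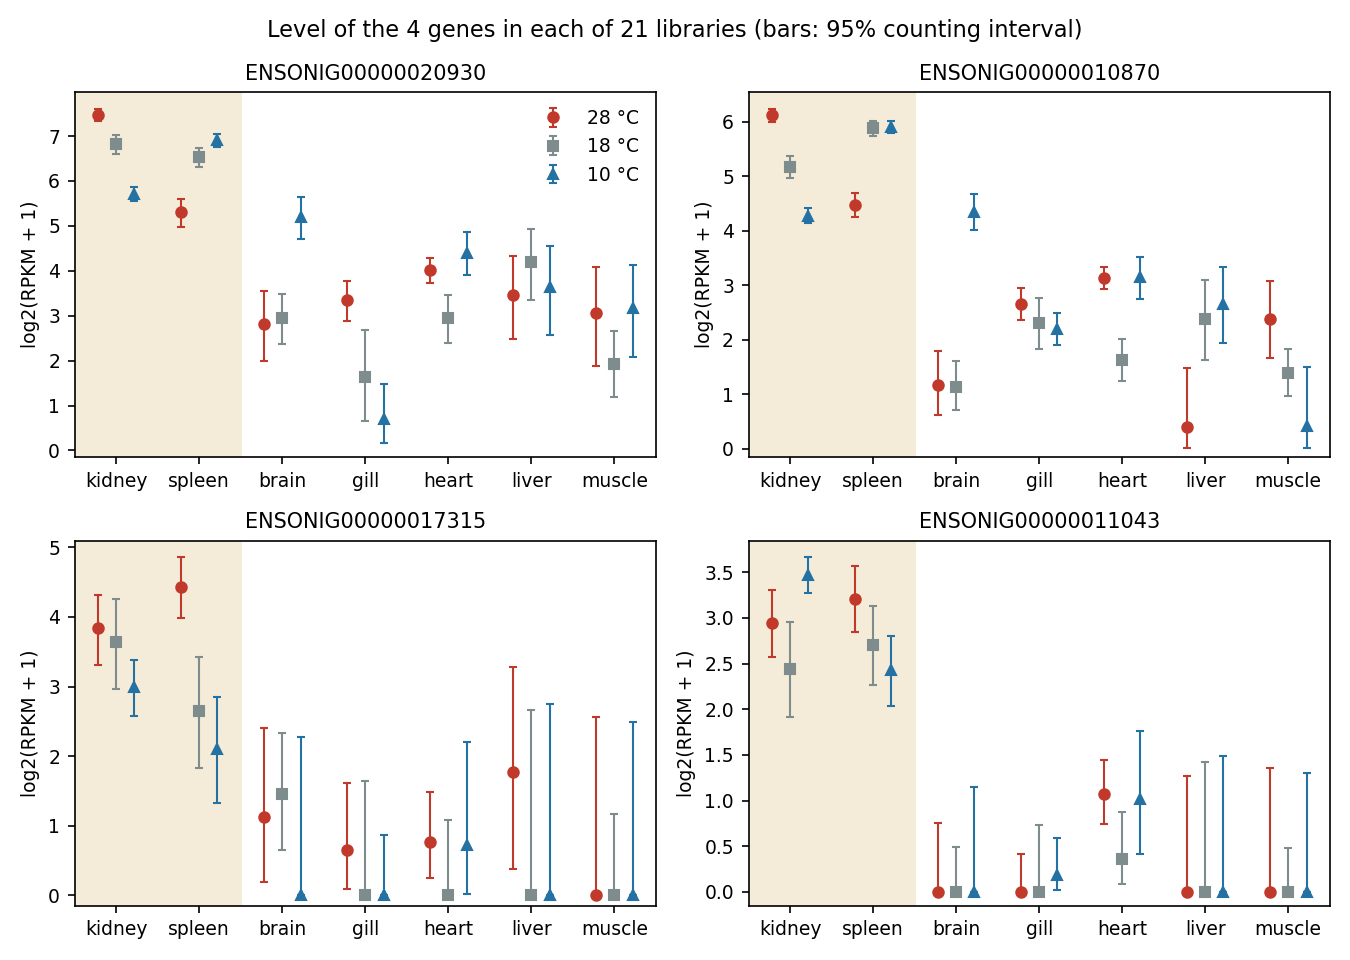
Level of each of the 4 genes as log2(RPKM + 1) on the vertical axis, by tissue on the horizontal axis, with 1 point for each of the 21 libraries, coloured by temperature, and bars for the 95% exact Poisson interval of its reads. Kidney and spleen are shaded; brain at 10 °C, at 35.5 and 19.4 RPKM, is the highest other library for ENSONIG00000020930 and ENSONIG00000010870.

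The genes were not alike in length. The lengths implied by the RPKM values were 849 bp for ENSONIG00000020930, 2942 bp for ENSONIG00000010870, 780 bp for ENSONIG00000017315 and 2469 bp for ENSONIG00000011043. Thus 2 of the 4 lay in the shortest 25% of genes, below 1585 bp, and the others near the median of 2647 bp.

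The definition rests on means, and at no single temperature did all 4 genes meet it. At 28 °C it was met by ENSONIG00000017315 and ENSONIG00000011043, and at 18 °C by ENSONIG00000020930 and ENSONIG00000010870. At 10 °C none of the 4 met it. In all, 4, 6 and 2 genes met it at 28, 18 and 10 °C alone. At 10 °C ENSONIG00000010870 was at 18.4 RPKM in kidney, against 19.4 in brain, a margin of -0.07, and ENSONIG00000020930 had a margin of 0.53. At 28 °C ENSONIG00000020930 failed on its margin of 1.28 and on its distance between the organs, with a level 2.18 higher in kidney. At 18 °C ENSONIG00000011043 had a margin of 2.08 and failed only on the floor of 5 RPKM, with 4.44 in kidney. ENSONIG00000017315 failed there on its margin of 1.20. At 10 °C ENSONIG00000017315 and ENSONIG00000011043 failed on margins of 1.38 and 1.41, and on the floor in spleen, with 3.27 and 4.37 RPKM.

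Over the 3 temperatures, 2 of the 4 genes had opposite orders in the 2 organs. ENSONIG00000020930 was lower at each step of cooling in kidney and higher at each step in spleen, and ENSONIG00000010870 had the same order. For ENSONIG00000010870 the spleen step from 18 to 10 °C was within counting error (intervals of 52.5 to 63.8 and 54.2 to 63.6 RPKM). Median-of-ratios scaling, with factors of 1.14 at 18 °C and 1.17 at 10 °C in spleen, reverses that step. Their ratio of kidney to spleen RPKM was 4.61 at 28 °C, 1.23 at 18 °C and 0.435 at 10 °C for ENSONIG00000020930. For ENSONIG00000010870 it was 3.21, 0.605 and 0.314. In these single libraries both genes were thus higher in kidney at 28 °C and higher in spleen at 10 °C. This opposite course, lower at each step of cooling in kidney and higher at each step in spleen, was seen in 3.84% of 3018 genes. Those genes reached 5 RPKM in a library of each organ.

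The counting intervals of the cold and warm libraries did not overlap for these 2 genes in either organ. For ENSONIG00000020930 the intervals were 46.2 to 57.7 RPKM at 10 °C and 160 to 194 at 28 °C in kidney, and 107 to 132 at 10 °C and 30.5 to 47.5 at 28 °C in spleen. For ENSONIG00000010870 they were 16.7 to 20.3 at 10 °C and 63.0 to 74.2 at 28 °C in kidney, and 54.2 to 63.6 at 10 °C and 18.1 to 24.9 at 28 °C in spleen. They cover counting error only, and differences between fish or preparations are not in them. In spleen the step lay mainly between 28 °C and the other temperatures: ENSONIG00000010870 had 58.7 RPKM at 10 °C and 57.9 at 18 °C.

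ENSONIG00000017315 was lower at each step of cooling in both organs, but not every step was beyond counting error. Its intervals at 18 and 10 °C overlapped in spleen (2.54 to 9.73 and 1.5 to 6.21 RPKM). Those at 28 and 18 °C overlapped in kidney (8.95 to 18.9 and 6.81 to 18.2), as did those at 18 and 10 °C (6.81 to 18.2 and 4.96 to 9.46). Only the step from 28 to 18 °C in spleen had intervals that did not overlap. At 10 against 28 °C it had 6.95 against 13.3 RPKM in kidney and 3.27 against 20.6 in spleen. The counting intervals overlapped in kidney (4.96 to 9.46 at 10 °C and 8.95 to 18.9 at 28 °C). They did not in spleen (1.5 to 6.21 at 10 °C and 14.8 to 28.0 at 28 °C). ENSONIG00000011043 was lower at each step in spleen, while in kidney it was lowest at 18 °C and highest at 10 °C. Its spleen intervals at 18 and 10 °C overlapped (3.80 to 7.75 and 3.09 to 5.99), as did those at 28 and 18 °C (6.17 to 10.8 and 3.80 to 7.75). In kidney its intervals at 28 and 18 °C overlapped too (4.94 to 8.89 and 2.78 to 6.72). Its intervals overlapped between 10 and 28 °C in kidney (8.69 to 11.7 at 10 °C and 4.94 to 8.89 at 28 °C), and did not in spleen (3.09 to 5.99 at 10 °C and 6.17 to 10.8 at 28 °C).

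**Figure D3:**
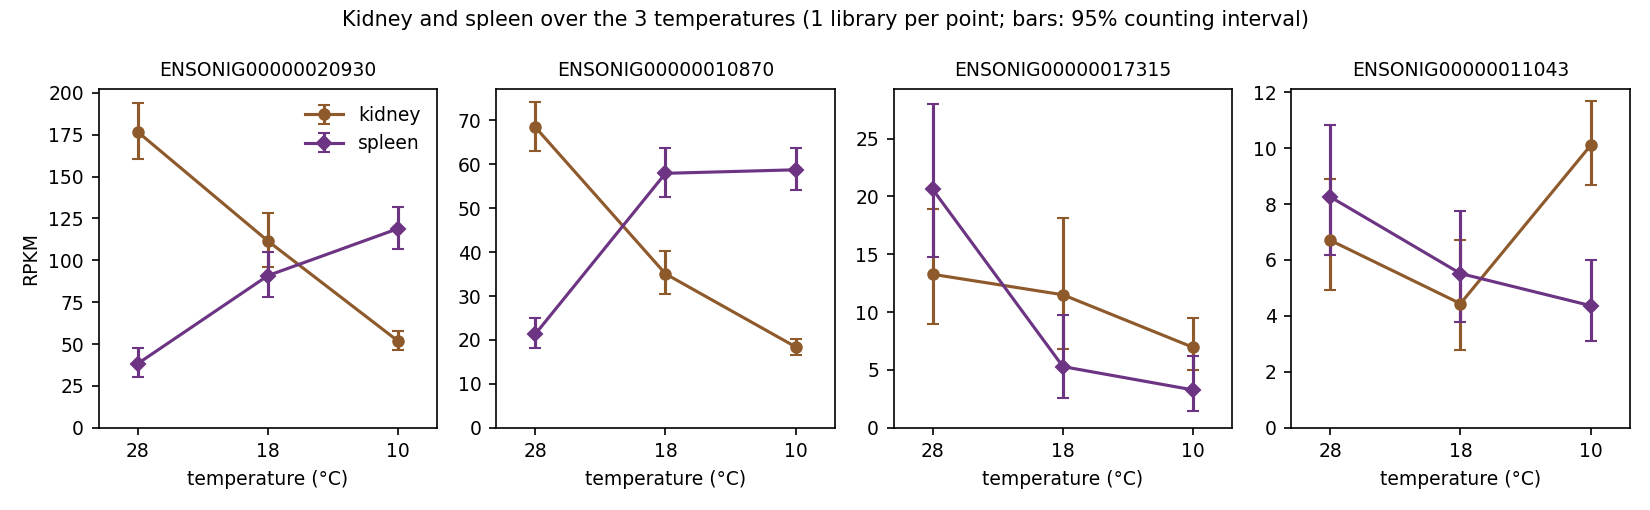
RPKM of each gene (vertical axis, from 0, a scale for each gene) in kidney and in spleen at 28, 18 and 10 °C (horizontal axis), 1 library per point with the 95% exact Poisson interval of its reads. ENSONIG00000020930 and ENSONIG00000010870 cross: their kidney to spleen ratio was 4.61 and 3.21 at 28 °C and 0.435 and 0.314 at 10 °C.

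Differences within an organ were set against all genes. A 2-fold difference, or 1 on the scale of log2(RPKM + 1), counted as higher or lower, among genes with 5 RPKM in either library. This is a description of 2 single libraries, with no test. At 10 against 28 °C in kidney, 2 of the 4 genes were lower and 0 higher, where 13.7% and 8.07% of 4607 genes were. ENSONIG00000010870 differed by -1.84 and ENSONIG00000020930 by -1.75, and 3.21% and 3.76% of genes had a lower difference. ENSONIG00000017315 differed by -0.84 and ENSONIG00000011043 by 0.53.

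In spleen at 10 against 28 °C, 2 of the 4 genes were higher and 1 lower, where 22.6% and 20.3% of 4351 genes were. The differences were 1.61 for ENSONIG00000020930, 1.42 for ENSONIG00000010870, -2.34 for ENSONIG00000017315 and -0.79 for ENSONIG00000011043. In the same order, 91.2%, 87.4%, 2.78% and 25.5% of genes had a lower difference. Without the library at 28 °C, the spleen means of ENSONIG00000017315 and ENSONIG00000011043 would lie below the floor of 5 RPKM. Their lower values in spleen at 18 and 10 °C are thus not independent of the choice. Median-of-ratios scaling lowered the median of all genes in this comparison by 0.25, which made the shares 16.1% higher and 28.0% lower, and 2 of the 4 genes 2-fold higher and 2 lower. No gene of the set changed direction. These shares of all genes are the background for the counts of the set. The 2 genes that were 2-fold lower in kidney and 2-fold higher in spleen shared this with 2.33% of 2746 genes.

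At 18 against 28 °C in spleen, 2 genes were higher and 1 lower, where 15.7% and 16.2% of 4146 genes were; with median-of-ratios scaling these shares were 11.1% and 23.0%. ENSONIG00000010870 differed by 1.40, ENSONIG00000020930 by 1.22, ENSONIG00000017315 by -1.78 and ENSONIG00000011043 by -0.51. In kidney 0 of the 4 were higher or lower by 2-fold, where 7.54% and 17.2% of 4442 genes were. The differences there were -0.95, -0.66, -0.19 and -0.50 in the same order of genes. Comparisons at 18 and at 10 °C share the 28 °C libraries and are not independent.

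**Figure D4:**
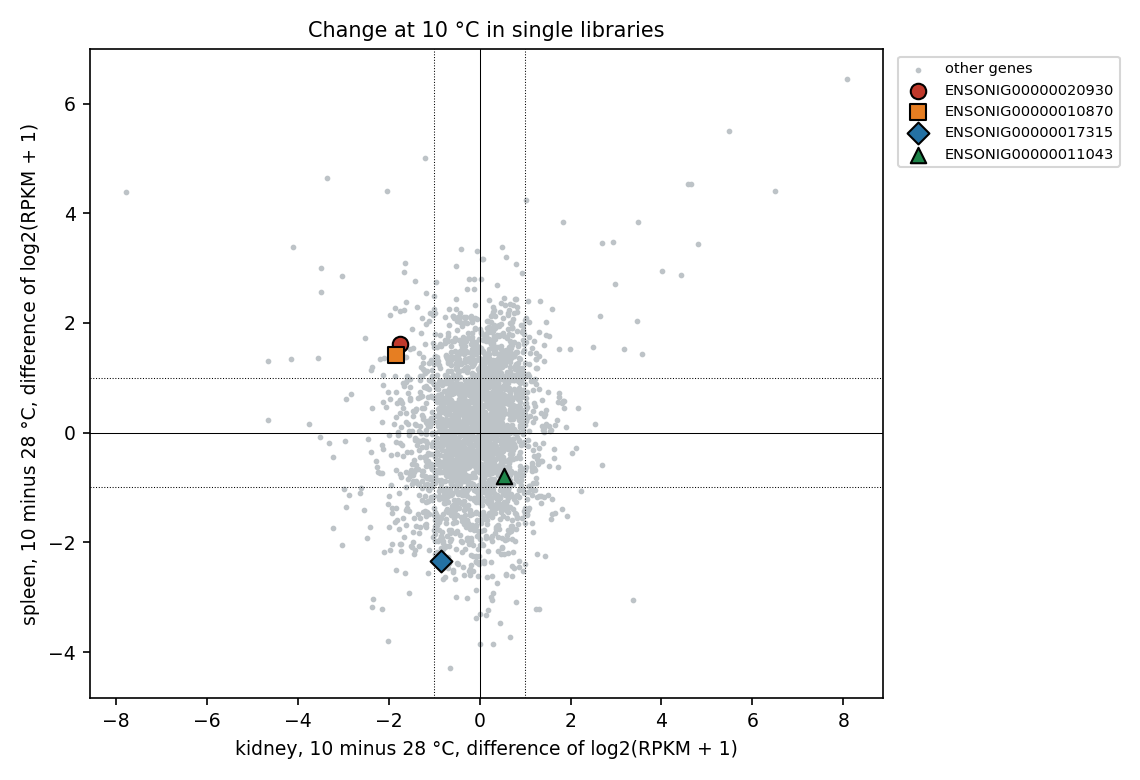
Difference in log2(RPKM + 1) between 10 and 28 °C in kidney (horizontal axis) and in spleen (vertical axis), 1 point for each of 2746 genes with at least 5 RPKM in 1 library of each pair; dotted lines mark a 2-fold difference. ENSONIG00000020930 and ENSONIG00000010870 lie together at upper left, at -1.75 and -1.84 in kidney and 1.61 and 1.42 in spleen.

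Gene length went with these differences. It had a Spearman's rho of 0.118 with the difference at 10 °C in kidney, and of 0.285 in spleen, across genes, which are not independent replicates. At 18 °C the values were 0.296 and 0.334. ENSONIG00000017315, one of the 2 short genes, went with this trend and ENSONIG00000020930 did not in spleen. With the trend of level on length removed from each library, ENSONIG00000020930 and ENSONIG00000010870 had -3.39 and -3.21 in the difference of log2 slopes given further on, against -3.36 and -3.30 with it. In the limma fit of both organs at 10 against 28 °C, also given further on, ENSONIG00000017315 had -1.39 without the trend. With the trend it had -1.59.

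The mean change of kidney and spleen with temperature was tested with limma over 15312 genes, which included all 4. A gene that changed in 1 of the organs alone can also pass this test. Tissue was a block, and temperature had 1 effect in kidney and spleen and another in the other 5 tissues. With 1 library per tissue and temperature, these p-values rest on the spread among tissues in the change with temperature. Differences among fish or preparations were not measured and cannot be told apart from that spread. At 10 against 28 °C in kidney and spleen 4 genes passed an adjusted p of 0.05, which is 0.0261% of those tested, and 534 had an unadjusted p under 0.05. None of the set passed. Over the set the median log2 difference was -0.17, and over all genes it was 0.00.

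ENSONIG00000017315 came nearest, with a log2 difference of -1.59 (SE 0.55, limma adjusted p = 1.00). It was lower in both organs and, in this fit, the only one of the set with an unadjusted p under 0.05. The unadjusted limma p was 0.217 (SE 1.37) with a pseudocount of 0.1 and 0.00052 (SE 0.25) with a pseudocount of 5. With limma-voom on recovered reads it was 0.056 (SE 0.81). The SE of 0.55 draws on 9 libraries of other tissues with 0 reads of this gene. Its spleen mean reached 5 RPKM only with the library at 28 °C, so its difference is not independent of the choice. Over the alternatives its adjusted p was 0.490 to 1.00. ENSONIG00000020930 had -0.07 (SE 0.94) and ENSONIG00000010870 had -0.21 (SE 1.05), each the mean of differences of opposite sign in the organs. ENSONIG00000011043 had -0.13 (SE 0.34). These errors leave room for changes of 2-fold or more in either direction for the first 2 of these genes. The smaller error of ENSONIG00000011043 does not set it apart. It draws on 11 libraries of other tissues with 0 reads, all at the same value on this scale. Its SE was 0.46 with kidney and spleen libraries alone, 0.62 with limma-voom and 0.71 with a pseudocount of 0.1. A 2-fold change is thus not excluded for this gene either.

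At 18 against 28 °C no gene passed in kidney and spleen (0%), the smallest adjusted p from limma being 1.00, while the unadjusted p was under 0.05 for 491. The log2 differences were 0.28 (SE 0.94) for ENSONIG00000020930, 0.23 (SE 1.05) for ENSONIG00000010870, -0.99 (SE 0.55) for ENSONIG00000017315 and -0.50 (SE 0.34) for ENSONIG00000011043. With limma-voom on recovered reads the count was 0 as well.

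The change at 10 °C in kidney and spleen was then compared with that in the other 5 tissues. None of the genes passed (0%), with 0.144 as the smallest adjusted p from limma, and 336 were under 0.05 before adjustment. ENSONIG00000017315 had a log2 difference of -1.59 in kidney and spleen and -0.72 in the other tissues. The difference was -0.87 (SE 0.65, limma adjusted p = 1.00), and it was 0.47 with a pseudocount of 0.1, so its direction depends on the pseudocount. In the other tissues 9 of 15 libraries had 0 reads of this gene. It was -0.81 (SE 1.24) for ENSONIG00000010870, -0.15 (SE 1.11) for ENSONIG00000020930 and -0.16 (SE 0.41) for ENSONIG00000011043. Without brain the values were -0.17 for ENSONIG00000010870 and 0.42 for ENSONIG00000020930, and without the 3 libraries named above they were 0.45 and 0.60, so the direction of both rests on those libraries. limma-voom on the recovered reads called 7 genes, none of them in the set.

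At 18 °C the same comparison called no gene (0%, limma, smallest adjusted p = 1.00; 460 genes at an unadjusted p under 0.05), and limma-voom called 0. The differences were 0.89 (SE 1.11) for ENSONIG00000020930, 0.41 (SE 1.24) for ENSONIG00000010870, -0.41 (SE 0.65) for ENSONIG00000017315 and -0.36 (SE 0.41) for ENSONIG00000011043. None of these directions held under every alternative: without spleen they were -0.049 for ENSONIG00000020930 and -0.76 for ENSONIG00000010870, and with limma-voom 0.52 for ENSONIG00000017315 and 0.067 for ENSONIG00000011043.

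The opposite course of 2 genes in the organs was tested with a slope on temperature for each tissue, a comparison added after the data were seen. Slopes are given as the log2 change from 28 to 10 °C. For ENSONIG00000020930 the slope was -1.73 in kidney and 1.63 in spleen, a difference of -3.36 (SE 1.32, limma adjusted p = 1.00). For ENSONIG00000010870 it was -1.83 and 1.47, a difference of -3.30 (SE 1.41, limma adjusted p = 1.00). Both had an unadjusted p under 0.05, and neither passed after adjustment over 15312 genes. The comparison was prompted by these same values, so the unadjusted p-values are no independent support. For ENSONIG00000010870 the unadjusted limma p was 0.084 with a pseudocount of 0.1 and 0.060 with median-of-ratios scaling. With a pseudocount of 5 it was 0.0066. No gene passed (0%, smallest adjusted p = 0.0567), 582 had an unadjusted p under 0.05, and limma-voom on the recovered reads called 0.

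The difference of slopes had the other sign for the remaining genes. It was 1.55 (SE 0.96) for ENSONIG00000017315, with slopes of -0.82 in kidney and -2.37 in spleen, and 1.26 (SE 0.71) for ENSONIG00000011043, with slopes of 0.47 in kidney and -0.79 in spleen. In order of the single-library difference between the organs at 10 against 28 °C, ENSONIG00000020930 and ENSONIG00000010870 were 63rd and 69th from the lowest of 6212 genes with 5 RPKM in at least 1 of these libraries. Across tissues their slopes were positive in brain (2.3 and 3.04) and negative in gill (-2.67 and -0.46). The brain slopes rest on the library at 10 °C, at 5.60-fold and 15.8-fold the mean of the other brain libraries. In heart the slopes were 0.30 and -0.10, in muscle 0.03 and -1.97, and in liver 0.21 and 2.31.

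The likeness of the 2 abundant genes over temperature differed among tissues, as these slopes show. Taken as deviations from each tissue's mean over 21 libraries, the values of ENSONIG00000020930 and ENSONIG00000010870 had a Pearson's r of 0.71. Among 15311 genes, ENSONIG00000010870 was 155th in likeness to ENSONIG00000020930, which was 426th in likeness to it. Without brain at 10 °C, which was left out after seeing the data, r was 0.57 over 20 libraries. ENSONIG00000017315 and ENSONIG00000011043 had an r of 0.31 on this measure, and the other pairings had -0.50 to -0.10. All members of a library share its depth and scaling, and these correlations are descriptions with no test.

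The ratio of the 2 abundant genes to each other varied less in kidney, spleen and heart than in gill and brain. Other pairs of genes were not compared. ENSONIG00000020930 had 2.58, 3.18 and 2.81 times the RPKM of ENSONIG00000010870 in kidney at 28, 18 and 10 °C, and 1.80, 1.57 and 2.03 times in spleen. In heart the ratio was 1.94, 3.20 and 2.56. RPKM is per length, so these compare levels between genes. In gill the ratio was 1.73, 0.533 and 0.170, from 35, 4 and 3 reads of ENSONIG00000020930. In brain it was 4.76, 5.60 and 1.83, from 8, 13 and 70 reads of ENSONIG00000010870. The brain value that stood apart was that at 10 °C, and few reads limit the comparison in both tissues. In liver at 28 °C and muscle at 10 °C it was 31.2 and 24.3, each with 1 read of ENSONIG00000010870. At the other temperatures it was 4.10 (18 °C) and 2.13 (10 °C) in liver, and 1.73 at both 28 and 18 °C in muscle. The muscle values rest on 6 and 9 reads of ENSONIG00000020930.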

How the data were processed

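The authors deposited 1 table per library with an Ensembl gene identifier and its RPKM, per the file headers. The submitters' processing notes name TopHat, Bowtie and HTSeq. Neither a build of the genome nor tool versions or settings are named there. Replicate libraries were not available within a tissue and temperature.

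Each RPKM equals whole reads over a gene length and a library constant. Solving for these gave whole reads (within 1e-06) in 100% of values for 17082 genes; 16 genes with reads in fewer than 2 libraries were not solved. The solver was checked on simulated data. Reads gave depth and exact Poisson intervals at 95%, which cover counting error only.

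For the tests, log2(RPKM + 1) of the 15312 genes that reached 1 RPKM in 3 or more libraries was modelled with limma 3.58.1 (R 4.3.3), using its trend option. Fold changes on this scale understate changes of low genes. All p-values are two-sided, Benjamini-Hochberg adjusted over all genes, with a threshold of 0.05. The fit was run on simulated counts drawn around tissue means, with changes planted in kidney and spleen together. These counts held no other differences among tissues in the change with temperature. The run therefore does not show how the fit behaves on these data. The main model left 10 residual degrees of freedom and the slope model 7, and the error of the slope model also holds departures from a straight line.

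Genes named are the 4 members and the 2 nearest outside the margin among genes that met the other conditions. The members, comparisons and alternatives were chosen with earlier results of these data known. Cell type marker lists consist of symbols, which match no identifier here. No sequence is shown, because none was matched to these identifiers.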

Additional observations from a re-analysis of the deposited data

How the results depend on the processing

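No gene of the set passed any of the 5 tests under any of the alternatives, which changed the pseudocount, filter, scaling, test, gene length trend and libraries. The count of all genes called at 10 against 28 °C in kidney and spleen, 4, was 7 with a pseudocount of 0.1 and 20 with limma-voom. It was 0 with a pseudocount of 5, with an RPKM of 1 in all 6 kidney and spleen libraries, with median-of-ratios scaling and with these libraries alone, and 1 without liver at 28, heart at 18 and brain at 10 °C, an alternative chosen after seeing the data. Leaving out each tissue gave 0 (brain, kidney or liver) to 8 (muscle). In the difference from the other 5 tissues at 10 °C, 1 gene was called with a pseudocount of 0.1, 7 with limma-voom, 1 without those 3 libraries, and 0 to 4 on leaving out a tissue, 4 without muscle. At 18 °C, leaving out a tissue gave 0 to 13 genes in kidney and spleen and 0 to 9 in the difference, the highest without spleen. The difference of slopes had 12 with a pseudocount of 5, 4 without a filter and 0 to 5 on leaving out a tissue, 5 without liver.

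The following directions changed. In kidney and spleen at 10 °C, ENSONIG00000020930 was 0.11 with the length trend removed. Leaving out a tissue gave -1.75 to 1.61 for ENSONIG00000020930 and -1.84 to 1.42 for ENSONIG00000010870, lowest without spleen and highest without kidney, and -0.79 to 0.53 for ENSONIG00000011043, lowest without kidney and highest without spleen. At 18 °C the ranges were -0.66 to 1.22 for ENSONIG00000020930 and -0.95 to 1.40 for ENSONIG00000010870. In the difference from the other tissues at 10 °C, ENSONIG00000020930 was 0.017 with a pseudocount of 0.1, 0.60 without the 3 libraries and -1.83 to 1.53 on leaving out a tissue, with 0.42 without brain. ENSONIG00000010870 was 0.45 without the 3 libraries and -2.44 to 0.82 on leaving out a tissue, ENSONIG00000017315 was 0.47 with a pseudocount of 0.1, and ENSONIG00000011043 ranged over -0.81 to 0.50. In this difference at 18 °C, leaving out a tissue gave -0.049 to 1.84 for ENSONIG00000020930, -0.76 to 1.59 for ENSONIG00000010870 and -1.21 to 0.38 for ENSONIG00000017315. ENSONIG00000017315 was 0.91 with a pseudocount of 0.1 and 0.52 with limma-voom, and ENSONIG00000011043 was 0.067 with limma-voom. The cause was not tested, other than that without kidney or spleen a value rests on the other organ.

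At 10 °C alone 2 genes met the definition, none of them in the set. A margin of 1 gave 8 genes. Leaving 1 other tissue out of the definition gave 4 to 9, with 9 without heart and 7 without liver. In spleen, median-of-ratios scaling made 2 genes of the set lower at 10 °C. A threshold of 1.5 there left 1 of the set higher at 10 °C and 0 at 18 °C. The pseudocount of 0.1 and the reads at or near 0 outside kidney and spleen limit what can be said of ENSONIG00000017315 and ENSONIG00000011043 there. No paired analysis was possible because each tissue and temperature had 1 library and the labels give no replicate numbers; tissue was a block in every fit.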
